A study of Mus musculus with 21 samples.

Results

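The genes of myoblast adhesion and fusion described here are 8 genes, measured by how much of each gene body lay inside H3K36me3 peaks. They are Mymk, Dock1, Cdh15, Cdh2, Cdon, Boc, Ncam1 and Itga7. The 8 are a named list among 19304 protein-coding mouse genes of at least 2 kb, given by name and not by a threshold on these values. H3K36me3 is the trimethylation of lysine 36 of histone H3, which the enzyme SETD2 deposits over the bodies of transcribed genes. The assay was ChIP-seq, chromatin immunoprecipitation with sequencing, and the cells were C2C12 mouse myoblasts, an established line that fuses into myotubes in culture. They were wild type (WT) or from 2 Setd2 knockout (KO) lines, with no other allele named in the labels. Both genotypes were taken at day 0, and after 1 and 5 days in control medium or under methionine restriction, which limits the amino acid that methyl groups come from. Each of the 5 conditions has 2 WT replicates and 1 library from either KO line. The labels do not say whether replicates were separate cultures, so the p-values measure the spread between these libraries, which may be technical. They also do not say how the KO lines were made or whether each is 1 clone.

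Cover is the percent of a gene body inside merged peaks, and genes are called marked from 50% cover upwards. The 10 WT lists held 63423 to 87398 peaks over 110 to 183 Mb. The lists of KO line 1 covered 0.307 to 74.1 Mb and those of KO line 2 covered 0.00821 to 7.13 Mb, and the read depth behind each list is unknown. Setd2 itself had 45.6% to 82.8% cover in the WT libraries, 0% to 24.0% in KO line 1 and no peak in KO line 2, which measures the mark over that gene and does not check the deletion. Of 6 myotube marker genes, 0 were marked at day 0, 2 in the day 1 control and 6 in the day 5 control, against 0 at day 1 and 2 at day 5 under restriction. All 4 endothelial markers had no peak in any WT library, at least 3 of 4 adipocyte markers had none in each group, and of 5 myoblast markers 3 were marked at day 0 and in both controls, against 0 at day 1 and 1 at day 5 under restriction. The part of these markers in the results below was not tested. Of 4 fibroblast markers, 2 were marked at day 0, the collagen gene Col1a2 highest at 88.3%, and Thy1 had no peak. Of 4 neuronal markers 3 had no peak at day 0 and Stmn2 had 34.3%, and of 3 immune markers 2 had none and Csf1r had 10.1%. In bulk chromatin, fewer cells with the mark and less mark per cell cannot be told apart.

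Myoblasts become multinucleated muscle fibres by recognising one another, adhering and merging their membranes. M-cadherin (Cdh15) and N-cadherin (Cdh2) hold myoblasts together, and CDON and BOC are cell surface co-receptors that associate with cadherins and promote the myogenic programme. NCAM1 is an adhesion molecule of the immunoglobulin family, and integrin alpha 7 (Itga7) binds laminin in muscle. Myomaker (Mymk) is a membrane protein required for fusion, and DOCK1 activates the small GTPase RAC1 during it.

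The promoter table gave the strand and the bases before the start site for 3 of the 8 genes, Cdh15, Cdon and Dock1, all on the plus strand. They are shown because the start site fixes the direction in which the cover of these genes is read below. Each is the 250 bases upstream of the RefSeq start on GRCm38.p6, at chr8:122848124-122848373, chr9:35451826-35452075 and chr7:134670437-134670686 in that order. Capitals mark every match to CANNTG, the E-box letters that myogenic factors such as MYOD recognise. This motif reads the same on both strands.
Cdh15: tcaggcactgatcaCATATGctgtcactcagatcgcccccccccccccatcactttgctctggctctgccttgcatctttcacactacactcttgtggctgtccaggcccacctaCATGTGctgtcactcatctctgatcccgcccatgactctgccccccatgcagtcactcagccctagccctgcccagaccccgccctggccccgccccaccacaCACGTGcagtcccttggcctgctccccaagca
Cdon: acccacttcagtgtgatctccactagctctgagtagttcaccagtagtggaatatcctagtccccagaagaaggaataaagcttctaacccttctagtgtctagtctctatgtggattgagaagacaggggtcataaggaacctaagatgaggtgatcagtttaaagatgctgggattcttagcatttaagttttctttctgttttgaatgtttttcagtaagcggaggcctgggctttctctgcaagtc
Dock1: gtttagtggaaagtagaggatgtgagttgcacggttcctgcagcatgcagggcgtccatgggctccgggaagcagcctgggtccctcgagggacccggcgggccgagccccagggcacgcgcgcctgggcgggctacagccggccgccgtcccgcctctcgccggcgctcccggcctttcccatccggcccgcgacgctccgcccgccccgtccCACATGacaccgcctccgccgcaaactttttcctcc
The Cdh15 window held 3 matches, the Dock1 window held 1 and the Cdon window held none. Of 32851 mouse promoter windows of the same length, 66.2% held at least 1 match. A match is a description of letters, and factor binding was not measured.

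Mymk, at chr2:27061636-27072161 (10.5 kb), went from no cover to cover over most of its body. It had no peak in either WT library at day 0. At day 1 in control medium its cover was 26.8% and 46.9%, and at day 5 it was 82.5% and 82.2%. The 3 steps did not overlap, and the cover at day 5 was above that of 93.7% of all genes on average. Under restriction Mymk again had no peak in either library at day 1, and at day 5 it had 23.3% and 25.0%. In the control libraries at day 5 a stretch of 7.90 and 8.01 kb from the lower-coordinate end was covered without a break, while each restricted library had 1 peak of 2.45 and 2.63 kb in the middle of the gene. The highest peak on Mymk ranked above 98.6% and 96.3% of the peaks of its list at day 5 in control medium, by the authors' fold enrichment.

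Dock1, at chr7:134670687-135173647 (503 kb), went the other way over the days. Its cover was 14.2% and 11.4% at day 0, 10.4% and 10.2% at day 1 and 2.35% and 2.13% at day 5 in control medium. Day 5 lay below both earlier times in every library. Under restriction the values were 14.2% and 10.2% at day 1 and 5.73% and 5.0% at day 5. Most of its cover lay in the first of 4 equal sections of the body from the start site, with 32.7% ± 3.47 of that section covered at day 0 and 7.13% ± 1.28 in the day 5 control (SD, n = 2). The gene shares 11.3% of its body with other genes, chiefly Insyn2a.

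Cdh15, at chr8:122848374-122867397 (19.02 kb), was already covered over most of its body at day 0, with 87.4% and 94.1%. It had 96.6% and 96.7% at day 1 and 82.3% and 83.2% at day 5 in control medium. In restricted medium it had 74.4% and 68.3% at day 1 and 73.2% and 74.3% at day 5. The restricted libraries lay below the control libraries at both days, without overlap. At the day 1 control, Cdh15 was above 99.9% of all genes, and under restriction it was still above 95.7% at day 1 and 94.3% at day 5 on average.

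Most of the cover that Cdh15 lacked under restriction lay toward its 5′ end. In control medium the first peak began 0.170 and 0.291 kb after the start site at day 1, and under restriction it began at 4.28 and 5.27 kb. At day 5 the corresponding distances were 1.87 and 1.52 kb in control medium and 5.10 and 4.88 kb under restriction. The first of 4 equal sections of the body went from 86.5% ± 0.342 to 4.99% ± 7.06 covered at day 1, and from 31.1% ± 2.65 to 0% at day 5, while the third section was fully covered in all 4 groups (SD, n = 2). The second section went from 100% to 84.5% ± 12.2 at day 1 and to 95.1% ± 3.20 at day 5, and the last from 100% to 96.04% ± 2.04 at day 1. Cdh15 shares no part of its body with another gene. The sections were not tested. All genes with a known strand and a mean cover of at least 5% over the WT libraries were read the same way, 7711 in number. The restricted minus control difference was lower in the first section than in the last for 45.8% of them at day 1. At day 5 this held for 56.2%.

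Cdh2, at chr18:16588877-16809246 (220 kb), carried little cover, most of it in the section at its lower-coordinate end. Its cover was 22.5% and 14.4% at day 0, 7.05% and 8.82% at day 1 and 26.7% and 25.3% at day 5 in control medium. Both day 1 libraries lay below every library of day 0 and day 5. Under restriction the values were 12.2% and 10.8% at day 1, above both control libraries, and 19.1% and 18.9% at day 5, below both. At day 5 the lower-coordinate section was 56.2% covered in control medium and 60.3% under restriction, and the section at the other end was 23.8% and 4.50% covered.

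Cdon, at chr9:35421528-35507652 (86.1 kb), was broadly covered at all times in control medium. Its values were 85.1% and 78.1% at day 0, 77.3% and 79.7% at day 1 and 88.6% and 88.0% at day 5. Under restriction they were 52.6% and 44.9% at day 1 and 57.8% and 58.2% at day 5, below the control libraries without overlap. The start site of the promoter table lies 30.6 kb inside the annotated body, so the stretch before it can be read apart from the 55.6 kb after it. Before that site the cover was 53.0% and 59.8% at day 1 in control medium and 20.3% and 10.3% under restriction. After it the cover was 90.7% in both control libraries and 70.4% and 63.9% under restriction. At day 5 the stretch before the site had 77.8% and 73.3% against 18.02% and 16.96%, and the stretch after it had 94.5% and 96.0% against 79.6% and 80.9%.

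Boc, at chr16:44485045-44558870 (73.8 kb), had low cover throughout, all within its lower-coordinate section except for 4.07% and 3.17% of the second section in 1 control and 1 restricted library at day 5. Its values were 8.94% and 8.78% at day 0, 3.11% and 3.06% at day 1 and 5.22% and 7.82% at day 5 in control medium. In restricted medium it had 2.57% and 3.31% at day 1 and 5.49% and 5.52% at day 5, and the media overlapped at both days. Boc and Cdon, which act together at the membrane, carried very different cover in these cells. Of the body of Boc, 9.27% is shared with other genes, mainly the lncRNA Gm30064.

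Ncam1, at chr9:49502129-49799393 (297 kb), changed late. Its cover was 21.7% and 19.2% at day 0 and 20.5% and 20.3% at day 1, then 73.1% and 65.7% at day 5 in control medium. In restricted medium it was 12.05% and 8.25% at day 1 and 23.8% and 26.8% at day 5. The restricted libraries at day 5 lay just above the day 0 libraries and far below the control libraries of the same day. In covered length the control libraries at day 5 had 217 and 195 kb inside 86 and 80 peaks, against 70.9 and 79.5 kb inside 46 and 47 peaks under restriction.

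The late cover of Ncam1 was spread along the gene. From the lower-coordinate end, the 4 sections had 62.1%, 7.38%, 9.93% and 2.44% mean cover at day 0. At day 5 in control medium they had 93.1%, 69.9%, 72.1% and 42.3%. Under restriction at day 5 they had 72.3%, 12.9%, 14.3% and 1.75%, lower than in control medium in every section and least so in the first. Part of that first section, 49.7 kb from 16.2 to 65.9 kb, is shared with the lncRNA Gm11149. Inside the shared stretch the mean cover was 64.6% at day 0, and 92.5% and 71.6% at day 5 in control and restricted medium. Outside it the mean cover was 11.6% at day 0, and 64.7% and 16% at day 5.

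Itga7, at chr10:128933421-128958286 (24.9 kb), was covered by 1 nearly unbroken peak. Its values were 93.2% and 94.7% at day 0, 95.5% and 95.2% at day 1 and 91.4% and 93.2% at day 5 in control medium. In restricted medium it had 77.2% and 73.5% at day 1 and 74.0% and 75.6% at day 5, below all 6 other WT libraries. The peak began 1.12 and 1.19 kb from the lower-coordinate end at day 1 in control medium and 5.66 and 6.59 kb from it under restriction. At day 5 it began at 2.13 and 1.68 kb against 6.47 and 6.06 kb. The edge under restriction and in the day 5 control lies inside, and that in the day 1 control just before, a 14.5 kb stretch shared with the lncRNA Gm46186, which is on the minus strand, and ChIP-seq cannot assign the mark to either gene. Inside that stretch the cover went from 100% to 68.2% at day 1 and from 97.4% to 67.3% at day 5, while outside it the mean was 88.9% and 85.3% at day 1 and 85.3% in both media at day 5.

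**Figure D1:**
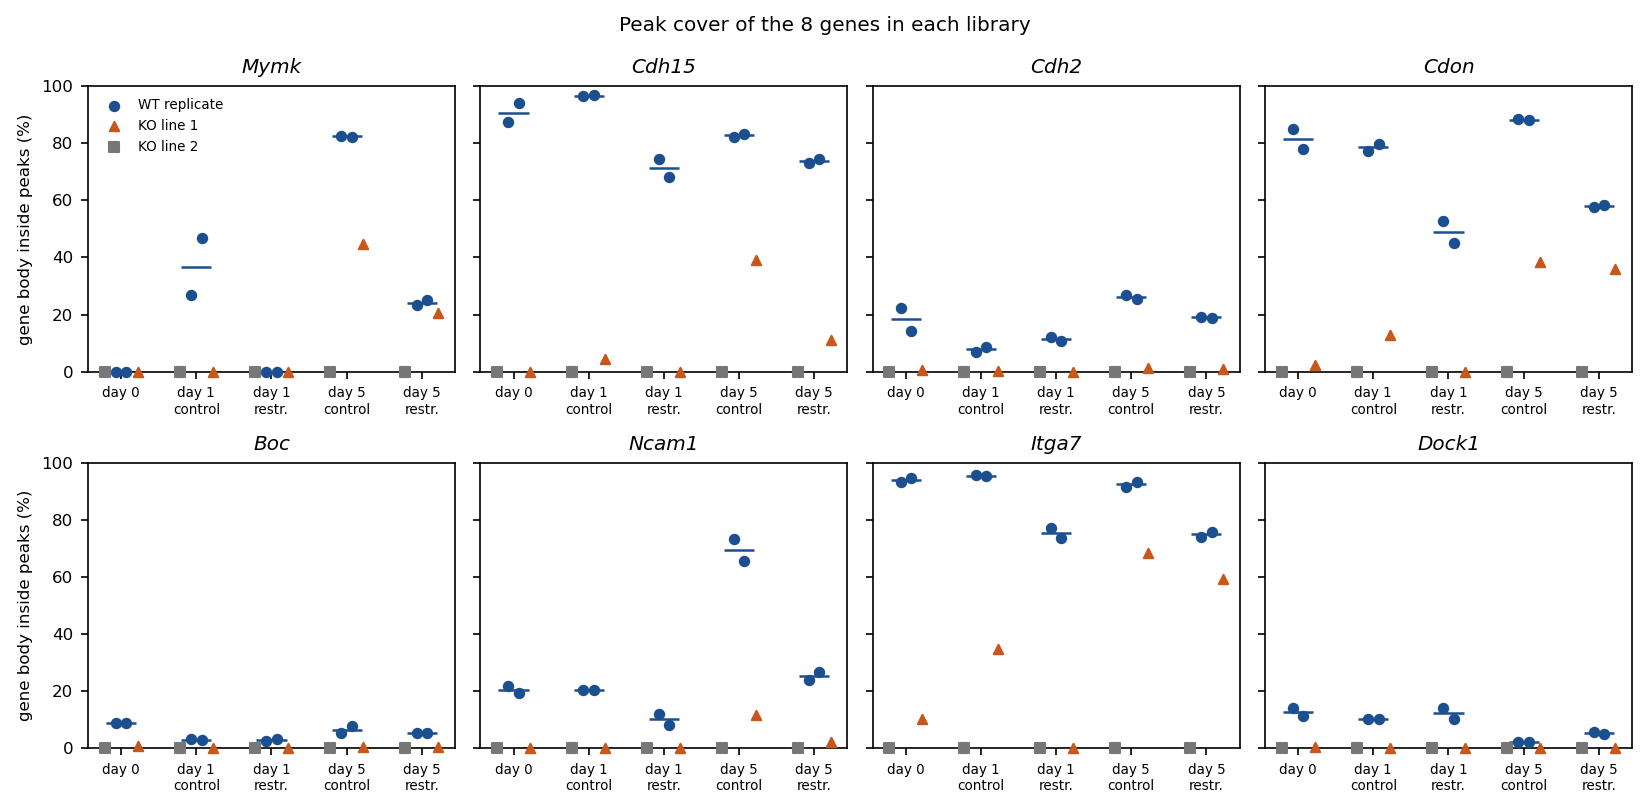
Percent of each gene body inside H3K36me3 peaks (vertical axis) in all 20 libraries by condition (horizontal axis). Circles are the 2 WT replicates with their mean as a bar, triangles are KO line 1 and squares are KO line 2. Mymk climbs from 0% to 82.2% and 82.5% in control medium, Ncam1 rises at day 5, and KO line 2 stays at or near 0%.

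**Figure D2:**
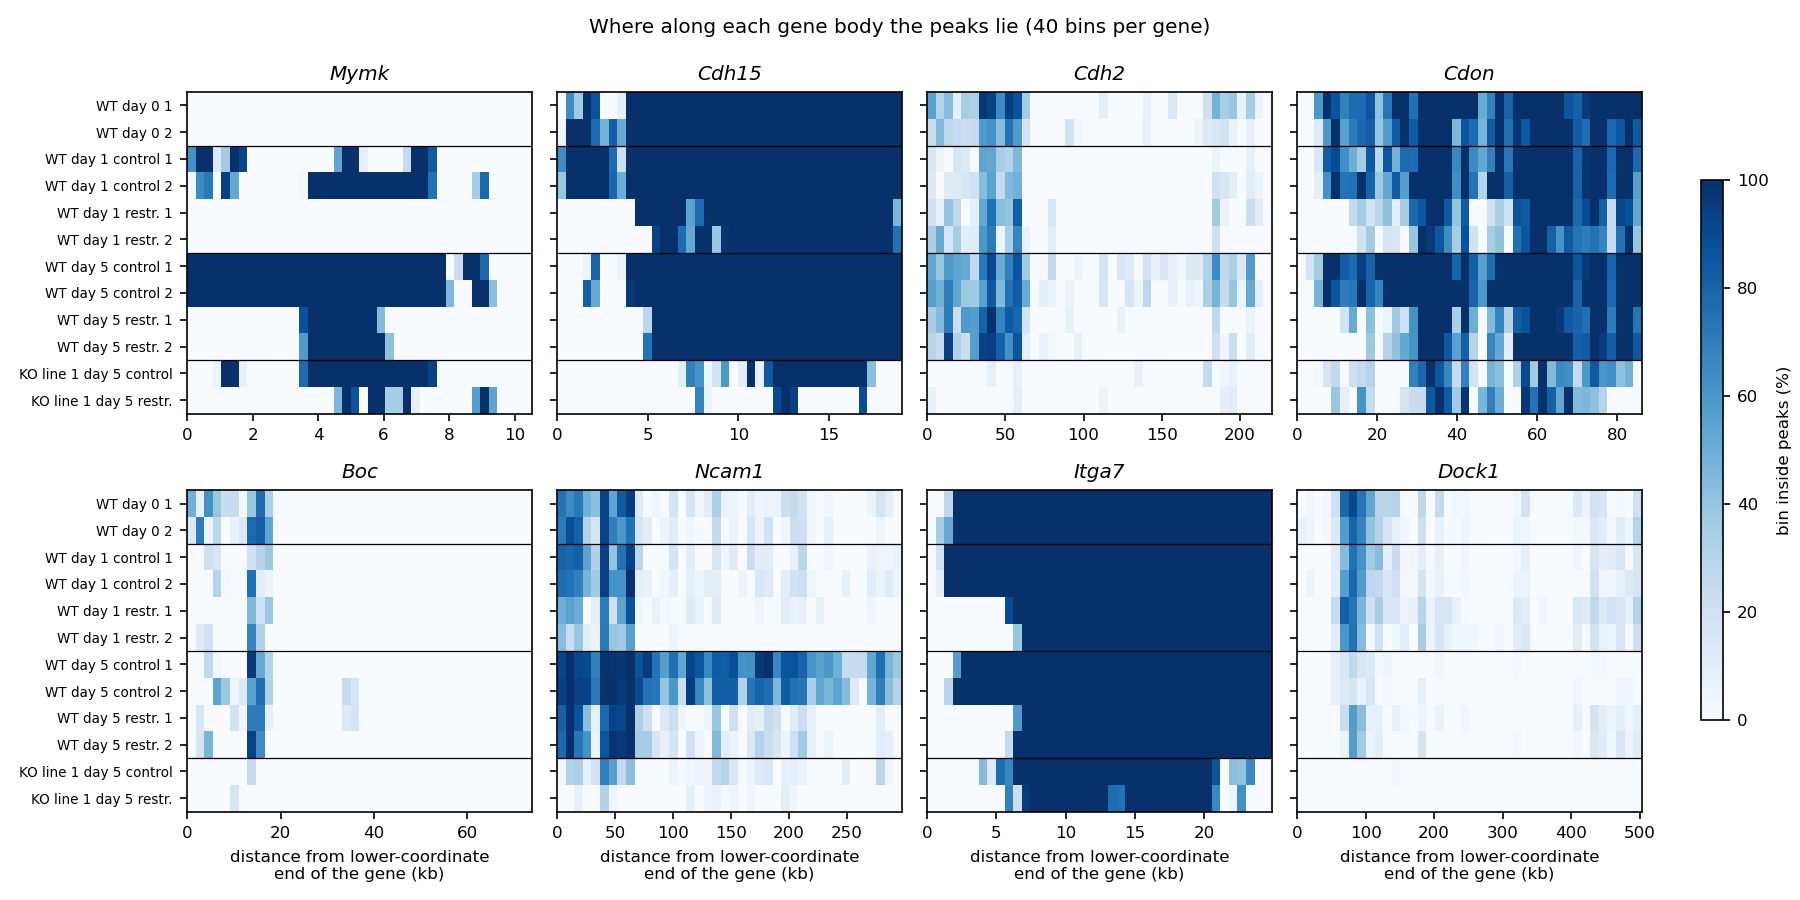
Percent of each of 40 bins per gene inside peaks (colour, 0% to 100%) along the distance from the lower-coordinate end in kb (horizontal axis), with 1 row per library for the 10 WT libraries and KO line 1 at day 5. The left edge of the covered stretch of Cdh15 and Itga7 sits further right under restriction, and Ncam1 has cover in all 4 sections of its body in the control libraries at day 5.

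In WT cells methionine restriction lowered the cover of 4 of the 8 genes at day 1 and of 5 at day 5. Each of these counts has to be read against a general loss, since 36.0% of the 9514 genes tested fell at day 1 and 41.5% at day 5. The median difference was −15.1 percentage points over the 8 genes and −7.99 over all genes at day 1, and −13.3 and −9.16 at day 5. All 8 genes passed the filter of at least 5% mean cover over the WT libraries. Boc did so only through day 0, where its cover was highest. Its part in the comparisons with day 0 is therefore a description and no support. Differences are restricted minus control in percentage points, from limma over all genes with Benjamini-Hochberg adjusted p-values.

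At day 1, Mymk fell by 36.8 points (SE 5.73, adjusted p = 0.00153). Cdon fell by 29.7 points (SE 3.71, adjusted p = 0.000507), Cdh15 by a difference of −25.2 (SE 2.95, adjusted p = 0.000374) and Itga7 by −20.0 (SE 2.10, adjusted p = 0.000211). The adhesion gene Ncam1 had a difference of −10.3 (adjusted p = 0.0563), which did not pass. Cdh2 had 3.57, Boc −0.147 and Dock1 1.90, with adjusted p of 0.378, 0.956 and 0.486. The Mymk call was lost with peaks of −log10 q of at least 3 and with lists cut to a common length, because Mymk then had no peak in either group.

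At day 5, Mymk fell by 58.2 points (SE 5.73, adjusted p = 0.000119) and Ncam1 by a difference of −44.1 (SE 3.68, adjusted p = 5.16e-05). Cdon fell by 30.3 points (SE 3.71, adjusted p = 0.000342) and Itga7 by −17.5 (SE 2.10, adjusted p = 0.000301). Cdh15 fell by 8.99 points (SE 2.95, adjusted p = 0.0361), a call that turned to 7.69 points higher, without passing, once libraries were centred on their medians, and that was lost when any 1 of the 6 libraries was left out of the day 1 control, day 5 control or day 5 restricted groups. It was also lost with peaks of −log10 q of at least 3 and with lists of a common length (adjusted p of 0.0892 and 0.219). Cdh2 had −7.00 (adjusted p = 0.0864), Boc −1.02 and Dock1 3.12 (adjusted p = 0.629 and 0.232).

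Centring removed a shift of −15.2 points at day 1 and −16.7 at day 5. Relative to it, Mymk had −21.6 and −41.6 points, Cdon −14.6 and −13.6, Cdh15 −10.1 at day 1 and Ncam1 −27.4 at day 5, all still past the threshold. Itga7 had −4.81 and −0.838 (adjusted p = 0.182 and 0.821) and was no longer called, and it was also not called outside the parts it shares with other genes. The 3 genes with the lowest cover came out higher on this scale at both days, Cdh2 at 18.8 and 9.67, Boc at 15.04 and 15.7 and Dock1 at 17.1 and 19.8. At day 1 each of the 3 had less cover in control medium than the shift removed, so its loss could not have reached it, and at day 5 this held for Boc and Dock1 but not for Cdh2. Ranks do not use that shift, but they can also depend on the length of each list. By rank, Mymk went from above 93.7% to above 68.2% of all genes at day 5, Ncam1 from 85.0% to 68.9% and Cdon from 97.2% to 86.9%. Itga7 went from 98.9% to 94.8%, while Cdh15 was at 93.9% and 94.3%.

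The effect of restriction differed between the days for 1 of the 8 genes, beside 5.20% of all genes. Ncam1 lost 33.8 points more at day 5 than at day 1, a difference of −33.8 (SE 5.20, adjusted p = 0.00834). Its cover in the day 1 control was 20.4%, so it could not lose more than that at day 1. With peaks of −log10 q of at least 3 the difference had an adjusted p of 0.0557. Cdh15 had a smaller loss at day 5 by 16.3 points (adjusted p = 0.0658) and Mymk a greater one by −21.4 (adjusted p = 0.181), neither of which passed. For Cdon the difference was −0.535 with an interval of −12.5 to 11.5 points.

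**Figure D3:**
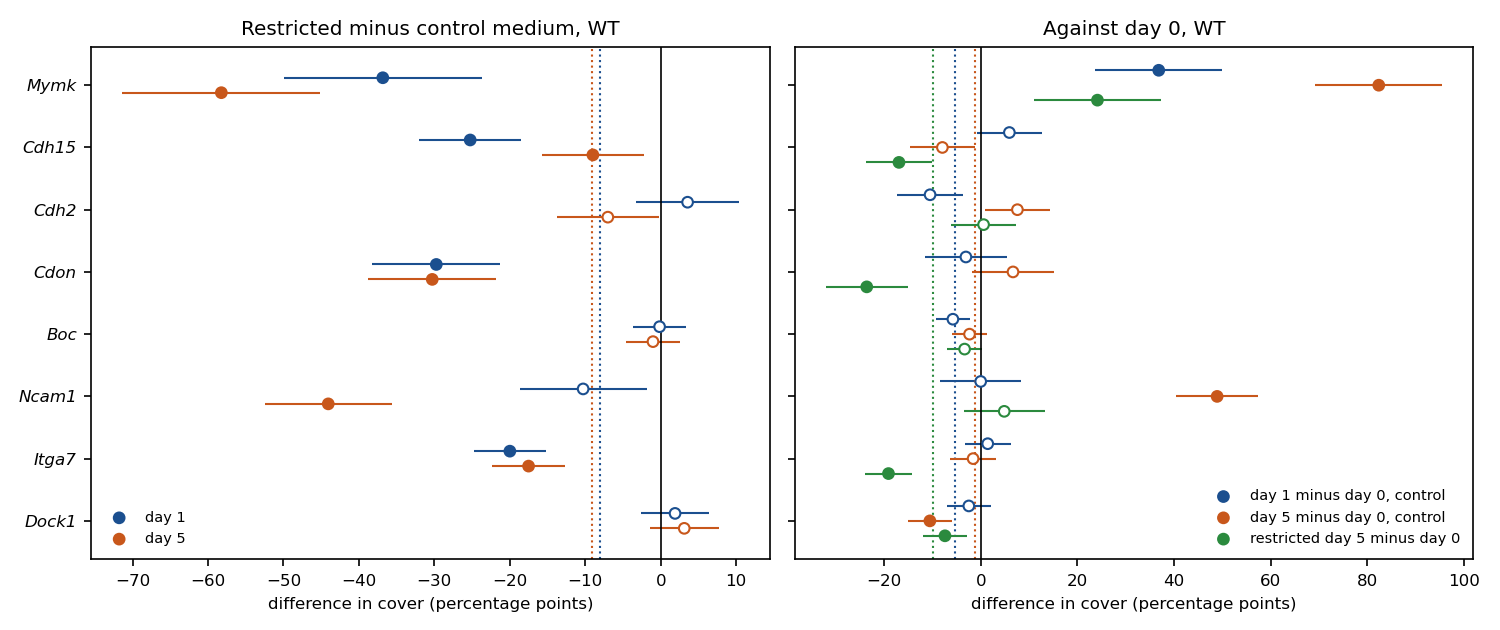
Difference in cover in percentage points (horizontal axis) for the 8 genes in WT cells, with 95% confidence intervals from limma. Filled points passed an adjusted p of 0.05 and open points did not, and dotted lines give the median of all genes tested in the same colour. Mymk and Ncam1 lie furthest to the left at day 5 under restriction and furthest to the right at day 5 against day 0 in control medium.

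Over differentiation in control medium the 8 genes split. From day 0 to day 1, 1 gene was called: Mymk rose by 36.8 points (SE 5.73, adjusted p = 0.0110), beside 0.967% of all genes that rose. That call was lost with peaks of −log10 q of at least 3, with lists of a common length and when the 4 libraries compared were fitted alone. From day 1 to day 5, 3 of 8 rose and 2 fell, beside 17.1% and 5.95% of all genes. Mymk rose by 45.5 points (adjusted p = 0.000742), Ncam1 by 48.9 (SE 3.68, adjusted p = 3.89e-05) and Cdh2 by 18.1 (SE 2.96, adjusted p = 0.00299). Cdh15 fell by 13.9 points (adjusted p = 0.0107) and Dock1 fell by 8.06 points (adjusted p = 0.0202). The Cdh2 call was lost with the stricter peaks and with lists of a common length. The Cdh15 call was lost without either day 1 control library or replicate 1 of the day 5 control, and the Dock1 call when any 1 of the 4 libraries compared was left out.

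Between day 0 and day 5 in control medium, 2 of 8 rose and 1 fell, beside 12.2% and 15.6% of all genes. Mymk rose by 82.4 points (SE 5.73, adjusted p = 1.83e-05), Ncam1 rose by 48.9 (SE 3.68, adjusted p = 2.59e-05) and Dock1 fell by 10.5 points (SE 1.98, adjusted p = 0.00464). Cdon had 6.66, Cdh2 7.57, Cdh15 −7.95, Boc −2.34 and Itga7 −1.59, none past the threshold. Without replicate 1 of day 0, 5 genes were called. The 6 myotube markers rose from 0 to 6 marked over the same days, and their part in the gain of Mymk and Ncam1 was not tested.

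Restricted cells at day 5 were also set against day 0. There, 1 of 8 genes rose and 4 fell, beside 4.05% and 43.5% of all genes. Mymk rose by 24.1 points (SE 5.73, adjusted p = 0.00878), but not with the stricter peaks or with lists of a common length. Ncam1 had 4.85 (adjusted p = 0.310). Cdon fell by 23.6 points, Itga7 fell by 19.1, Cdh15 fell by 16.9 and Dock1 fell by 7.42 (adjusted p = 0.00109, 0.000166, 0.00192 and 0.0148). After centring, which removes −19.05 points here, Dock1 turned to 11.6, which was called higher, and Cdh15 to 2.11, and neither Cdon nor Itga7 was called. On that scale Mymk had 43.2, and Ncam1 (23.9), Cdh2 (19.6) and Boc (15.7) were called higher (adjusted p = 0.000341, 0.000528 and 0.00285). Cdh2, Dock1 and Boc had 18.4%, 12.8% and 8.86% cover at day 0, less than the shift removed. Each of these 3 therefore had to come out higher on that scale, whatever cover it lost. Ncam1 and Cdh2 were also called higher with lists of a common length. With the parts shared with another gene left out, Itga7 had −1.85 (adjusted p = 0.480). The Dock1 call was lost without replicate 1 of day 0 or either restricted library. These comparisons share the day 0 or the control libraries with those above, so their differences are not independent.

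The KO lines had little peak cover on these genes, in lists of unknown depth that covered less of the genome than any WT list. In KO line 2, 39 of the 40 values of the 8 genes in 5 conditions were 0 and the other was 0.0748% for Dock1. In KO line 1, 24 of 40 values were above 0 and 2 reached 50%, both for Itga7 at day 5. In all, 6 genes passed the filter of 5% mean cover over all 20 libraries, and Boc and Dock1 did not. Cdh2 and Ncam1 passed it through the WT libraries, where they are high, so their part in the counts below is a description and no support. Against WT, 5 of these 6 were lower at day 0, 6 at day 1 in control medium, 5 at day 1 restricted, 6 at day 5 in control medium and 4 at day 5 restricted. Most genes did the same, with 93.7%, 91.6%, 77.7%, 84.1% and 74.9% of 8861 genes lower in that order. At day 1 restricted the lists of KO lines 1 and 2 held only 791 and 127 peaks, over 0.307 and 0.00821 Mb. None of the 8 genes had a peak there in either line, so any with WT cover could only be lower.

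At day 0, Cdh15 fell by 90.7 points in the KO lines, Itga7 fell by 88.7, and Cdon fell by 80.4 (adjusted p up to 0.00163). At day 5 in control medium, Mymk was lower by a difference of −60.1 (SE 10.8, adjusted p = 0.000205). For Ncam1 and Cdh2, given as levels because of the filter, the WT and KO means were 20.5% and 0%, and 18.4% and 0.374%, at day 0, and 69.4% and 5.89%, and 26.01% and 0.755%, at day 5 in control medium. Mymk at day 0 and at day 1 restricted had no peak in either genotype and could not be lower. At day 5 restricted, Mymk had −13.9 (adjusted p = 0.266) and Itga7 −45.2 (adjusted p = 0.0729). Some of these calls rested on 1 library or on the shared estimate of the spread. Fitted on the libraries compared alone, Mymk and Itga7 at day 5 in control medium had adjusted p of 0.0701 and 0.210, and Cdon at day 5 restricted had 0.0971. Mymk at day 1 in control medium was lost without replicate 2 of the WT control and had no difference with the stricter peaks, and Itga7 at day 5 in control medium without either WT replicate. Of the calls counted above, Ncam1 at day 1 restricted was lost in 5 of 9 alternatives, and Cdh2 at day 1 in control medium was lost with either KO line alone. At day 5 restricted, Itga7 was called in 4 of 9 alternatives, each KO line alone among them, and Mymk with KO line 2 alone. With KO line 1 alone the differences at day 5 were −37.8 for Mymk and −24.0 for Itga7 in control medium and −22.2 for Cdon and −15.6 for Itga7 under restriction.

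In KO line 1, 6 of the 8 genes had more cover at day 5 in control medium than at day 0 and 2 had less, beside 92.4% of 8456 genes with more. At day 0 its cover was 10.3% on Itga7 and 2.48% on Cdon, and Mymk, Cdh15 and Ncam1 had no peak. At day 1 in control medium it was 34.9%, 12.96% and 4.33% on Itga7, Cdon and Cdh15, and under restriction none of the 8 genes had a peak in a list of 791 peaks. At day 5 in control medium it was 68.4% on Itga7, 44.6% on Mymk, 39.1% on Cdh15, 38.3% on Cdon and 11.8% on Ncam1. At day 5 under restriction these were 59.2%, 20.5%, 11.2%, 35.8% and 2.23%. All 8 genes were lower in the restricted library, as were 82.0% of the 8618 genes with cover in either list, which covered 74.1 and 45.8 Mb. By rank Mymk was above 90.3% and 91.7% of genes in these 2 libraries, and Itga7 above 95.7% and 97.6%. With 1 library per condition the line allows no test of its own.

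Genes that work with these 8 were taken from 3 lists. Of 28 other fusion genes, 20 passed the filter, and under restriction 12 fell at day 1 and 15 fell at day 5, where 1 rose. Cav3, among the 15, passed the filter through the day 5 control alone, and without it 14 of 19 fell at day 5. Of all genes tested, 36.0% fell at day 1, and 41.5% fell and 4.32% rose at day 5. The median differences of the list were −18.6 and −22.2 points, against −7.99 and −9.16 over all genes. Arf6, a small GTPase of membrane traffic, went from 77.1% ± 7.73 to 2.95% ± 4.17 at day 1 and from 83.4% ± 1.83 to 12.8% ± 18.1 at day 5 (SD, n = 2). Cd81, a tetraspanin, went from 87.5% ± 3.09 to 23.4% ± 3.18 at day 1 and from 89.3% to 24.5% at day 5. Crk, an adaptor protein, went from 75.2% to 35.3% at day 1. From day 0 to day 5 in control medium, 4 genes of the list rose, Cav3 among them, and 4 fell, beside 12.2% and 15.6% of all genes. The median was −3.08 points against −1.17 over all genes. Cav3, the caveolin of muscle, had 48.6% at day 5 in control medium and no peak at day 0 or under restriction. Dysf, which encodes the membrane repair protein dysferlin, had 0.0743% at day 0, 84.9% at day 5 in control medium and 55.0% at day 5 under restriction. Kirrel, an adhesion molecule of the immunoglobulin family, fell from 86.9% ± 0.903 at day 0 to 39.6% ± 5.68 at day 5 in control medium (adjusted p = 6.99e-05). Jam3, an adhesion molecule, was the 1 gene that rose at day 5, by 6.56 points (adjusted p = 0.0135), and was named after its value was seen. The lists were made with earlier results of these data known and are no independent evidence of direction.

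Of 14 partners of cadherins and CDON, 13 passed the filter, and 6 fell at day 1 and 8 at day 5, beside 36.0% and 41.5% of all genes. Cdh13, among the 8, passed the filter through the day 5 control alone, and without it 7 of 12 fell at day 5. The medians were −17.1 and −19.3 points, against −7.99 and −9.16 over all genes. Cdc42, a small GTPase downstream of CDON, went from 58.3% ± 6.75 to 18.9% ± 3.11 at day 1 and from 84.5% ± 2.81 to 24.1% ± 1.79 at day 5. Jup, the catenin gamma of cell junctions, went from 79.1% to 58.1% at day 1. Ctnna1 and Ctnnb1, the alpha and beta catenins that link cadherins to actin, went from 68.7% to 22.5% and from 67.0% to 39.0% at day 5. From day 0 to day 5 in control medium, 2 genes of the list rose, Cdh13 among them, and 2 fell, beside 12.2% and 15.6% of all genes. Both counts were near those shares. Gas1, a hedgehog co-receptor, had 43.2% at day 0, 32.9% at day 1 in control medium and no peak at day 5 in either medium or at day 1 under restriction. Cdh13, another cadherin, rose from 2.01% at day 0 to 30.3% at day 5 in control medium, and Ctnna1 rose from 47.3% ± 14.2 to 68.7% ± 4.56.

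Of 19 integrin and laminin genes, 16 passed the filter, and 6 fell at day 1 while 10 fell and 1 rose at day 5. The count at day 1 was near the 36.0% of all genes that fell, and at day 5 the shares of all genes were 41.5% and 4.32%. The medians were −8.57 and −13.2 points, against −7.99 and −9.16 over all genes. Ilk, the integrin-linked kinase, went from 56.1% ± 0.324 to 13.2% ± 5.90 at day 1 and from 58.7% to 23.6% at day 5. Lama5, a laminin chain, went from 93.8% to 61.8% at day 1. Fermt2, an integrin activator, went from 79.3% to 36.8% at day 5, and Itga5, a fibronectin receptor chain, from 83.1% to 56.2%. From day 0 to day 5 in control medium, 2 genes of the list rose and 3 fell, beside 12.2% and 15.6% of all genes. Both counts were near those shares. Itga3, which pairs with integrin beta 1, fell from 90.0% at day 0 to 41.1% at day 5 in control medium, and at day 5 it was the 1 gene of the list called higher under restriction, by 13.8 points (adjusted p = 0.0424). Vcam1, the ligand of integrin alpha 4, fell from 50.6% ± 16.3 to 6.31% ± 3.804 between day 0 and day 5 in control medium, and went from 36.4% to 12.5% with restriction at day 1. Itgb1bp2, the muscle protein melusin, fell from 66.1% to 34.7% between day 0 and day 5 in control medium.

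**Figure D4:**
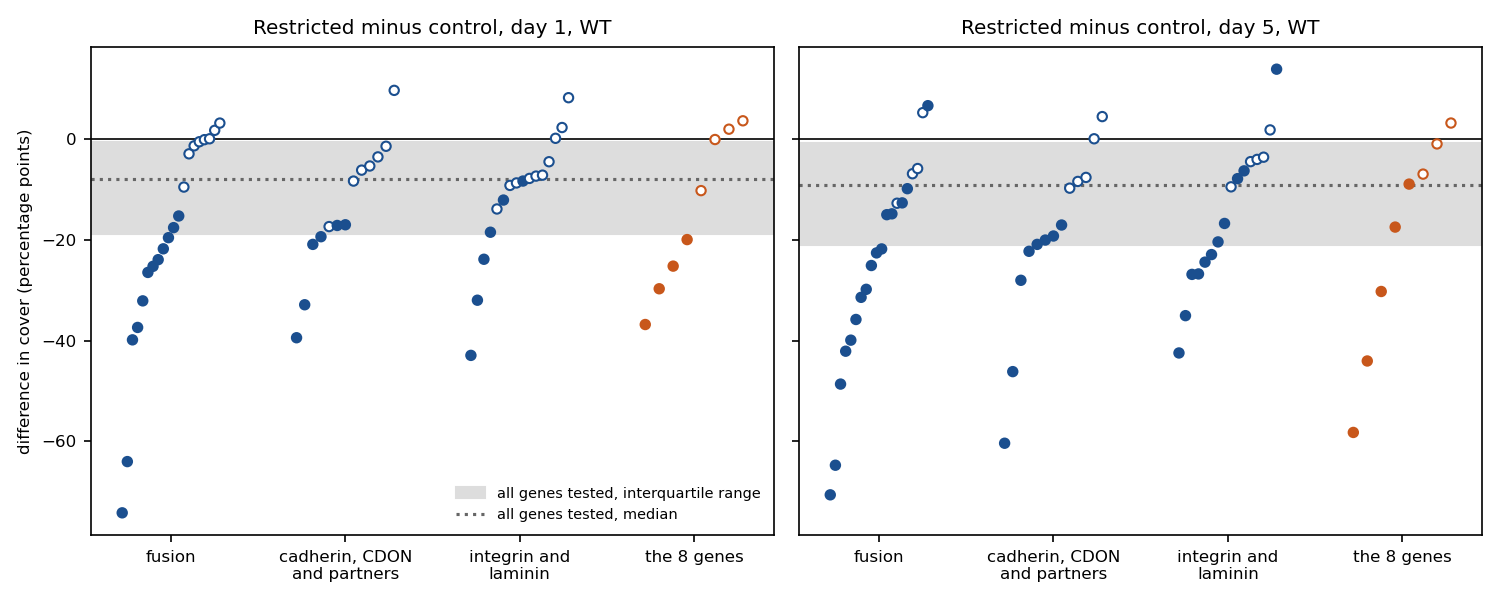
Difference in cover in percentage points (vertical axis), restricted minus control in WT cells, for each tested gene of the 3 lists of other genes and for the 8 genes (horizontal axis). Filled points passed an adjusted p of 0.05, the grey band is the interquartile range of all genes tested and the dotted line their median. All 3 lists have medians below that line at both days.

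Among themselves the 8 genes formed loose groups in the 10 WT libraries, described by correlation of cover without a test, since libraries share conditions and list length. Cdh15 and Itga7 had a Pearson r of 0.921 and Cdon and Itga7 of 0.917. Mymk and Ncam1 had 0.908, and both ran opposite to Dock1 at −0.823 and −0.809. Over 9513 other genes, the courses most like that of Mymk were those of Rbm24 and Adamts5 at 0.990 and 0.986. For Ncam1 they were Zeb1 and Igfn1 at 0.998 and 0.995, for Dock1 Hells and Ercc6l at 0.982 each, and for Cdon Usb1 and Itm2b at 0.995 each. For Itga7 they were E2f2 and Purb at 0.996 and 0.995, for Cdh15 Limd2 and Bcr at 0.972 and 0.970, for Cdh2 Dgke and Snx25 at 0.968 and 0.965, and for Boc Tpp1 and Slc38a7 at 0.942 and 0.936.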

How the data were processed

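H3K36me3 ChIP-seq of C2C12 cells was deposited as 20 broad-peak lists, 1 per library, on GRCm38 per the submitters' processing notes. Each peak has the authors' fold enrichment, −log10 p and −log10 q, and the lowest deposited −log10 q was 1.00. The peak caller, its control, read filters and any use of the Drosophila spike-in named in the labels' protocols are not given in the sources used here. Fold enrichment, a ratio, was used as the authors deposited it, to rank peaks within a list. Depth is unknown, so no counting interval is given. The input was not used here. Peak names call KO line 2 replicate 2 of a KO group, and the labels were followed.

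Overlapping peaks were merged, and the percent of each RefSeq GRCm38.p6 gene body inside them was taken for the 19304 protein-coding genes that are 2 kb or longer. The WT comparisons used limma 3.58.1 in R 4.3.3 (trend and robust, two-sided) on 10 libraries and 9514 genes whose mean cover reached 5%. The KO comparisons used all 20 libraries and 8861 genes, with the 2 lines as the KO samples. P-values were adjusted over all genes within a comparison and called under 0.05. Both steps were tested on simulated data. From each list of other genes, up to 3 called genes per comparison with the greatest absolute difference and no overlap between groups were named (for the difference between days, without the overlap rule), and for likeness the 2 genes with the highest Pearson r. The genes of the lists are given for restriction at each day and for day 5 against day 0 in control medium, a choice made with the values known, and those of the other comparisons are not given. The members and lists were chosen with earlier results of these data known. Alternatives were peaks of −log10 q of at least 3, lists of a common covered length, gaps up to 1 kb bridged, no cover filter, parts shared with other genes left out, only the libraries compared, centred libraries, a replicate block, each KO line alone and each WT library left out. A sample left alone in its group was assumed to vary like the other groups.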

Additional observations from a re-analysis of the deposited data

Results flagged for a closer look

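The effect of restriction on Ncam1 cover in WT cells differed between the days by −33.79 percentage points (SE 5.20, limma adjusted p = 0.00834), tested as the difference of the 2 effects. Cover went from 20.5% and 20.3% in control medium to 12.05% and 8.25% under restriction at day 1, and from 73.1% and 65.7% to 23.8% and 26.8% at day 5. The restricted libraries were lower in 2 of 2 at both days. Over the 18 alternatives the difference was −41.9 to −20.2 points with adjusted p of 0.00298 to 0.0557, and it missed the threshold with peaks of −log10 q of at least 3. The cover of 20.4% in the day 1 control bounds the loss possible at day 1.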

How the results depend on the processing

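Of 1231 recomputed differences of the 8 genes, 1131 stayed on their side of the threshold, 50 lost a call, 43 gained one and 7 turned in sign with a call on at least 1 side. Among the 1131, 30 turned in sign with a call on neither side. The 7 all came from centring each library: Boc 15.04 and 15.65 for restriction at days 1 and 5, Cdh15 7.688 and Cdh2 9.67 for restriction at day 5, and Cdh15 2.111, Boc 15.69 and Dock1 11.63 for restricted day 5 against day 0. The number of the 8 genes called moved as follows. For the difference in restriction between days it was 1, and 2 with peaks of −log10 q of at least 3, 3 with lists of a common length, 2 with only the libraries compared and 1 to 2 with a library left out. For day 1 against day 0 it was 1, and 0 with the stricter peaks and with lists of a common length (limma, 0 at an unadjusted p under 0.05), 0 with only the libraries compared (limma, 3 at an unadjusted p under 0.05), 2 with no filter and 1 to 2 with a library left out. For day 5 against day 1 it was 5, and 3 with the stricter peaks and 3 to 5 with a library left out. For day 5 against day 0 it was 3, and 5 with bridged gaps, 5 with centring and 3 to 5 with a library left out. For restricted day 5 against day 0 it was 5, and 3 with the stricter peaks, and for KO at day 1 restricted it was 5, and 3 with the stricter peaks. With a library left out, the counts for restriction were 4 to 5 at day 1 and 4 to 6 at day 5. The cause was not tested.

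Over all genes, restriction at day 1 gave 3648 calls, and 2291 with lists of a common length and 2354 without replicate 2 of the restricted libraries. Restriction at day 5 gave 4356, and 2897 with the stricter peaks and 2721 without replicate 1 of the control. The difference between days gave 495 and 212 to 659 with a library left out. Day 1 against day 0 gave 631, and 196 with lists of a common length, 335 with centring, 142 to 987 with a library left out and 0 with only the libraries compared (limma, 1877 at an unadjusted p under 0.05). Day 5 against day 1 gave 2193, and 1296 with the stricter peaks and 1108 without replicate 1 of the day 5 control. Day 5 against day 0 gave 2641, and 1706 with only the libraries compared and 1758 without replicate 1 of the day 5 control. KO at day 1 restricted gave 6887, and 4115 with the stricter peaks. With the replicate block, 4 of the 8 genes were called for restriction at day 5 in place of 5, with Cdh15 lost (adjusted p = 0.0528), the other WT counts of the 8 genes did not move, and restriction gave 3436 and 4176 calls over all genes. Deviations of equal numbers correlated at −0.439 to 0.0614 over 10 pairs of groups. None was above 0.0614, so equal numbers do not pair the samples. The lowest value was between day 0 and the day 1 control, and a link between unequal numbers there was not tested. Peak lists give extent and not height, so a gene already covered end to end cannot show a gain, and a short list cannot be told apart from a shallow library.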
